A study of Mus musculus with 18 samples.

Results

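Vascular endothelial growth factors (VEGFs), angiopoietins and their receptors were followed through mouse tail tendon fibroblasts (TFs) that differed in genotype, oxygen and treatment with Cre vesicles. The 10 genes were taken by name, with earlier results of these data known: the VEGF-family ligands Vegfa, Vegfb, Vegfc, Vegfd and Pgf (placental growth factor), the angiopoietins Angpt1 and Angpt2, the angiopoietin-like gene Angptl4, and the receptors Flt1 (VEGFR1) and Kdr (VEGFR2). All 10 were found among the 55491 rows of the count table, and all 10 passed the filter on low counts that left 16174 genes for testing, Kdr only through groups in which it was high. Poly-A RNA-seq was performed on 18 libraries in 6 groups of 3. Ctrl TFs (labelled wild-type, and Cre-negative by the culture methods) and cKO TFs (Hif1a flox/flox; ScxCre, labelled as Hif1a knockout) were each kept for 4 days in 20% or 1% O2, as were Ctrl TFs given Cre gesicles (vesicles loaded with Cre recombinase). The paper gives its Cre-negative Ctrl mice as Hif1a flox/flox, so Ctrl TFs, also those given gesicles, may carry floxed Hif1a despite the label. Whether gesicles deleted Hif1a was not tested. The mice were 4 to 6 months old and of both sexes on a C57BL6J/129S1 mixed background, the sex of each library was not in the labels, and all cells had crawled out of collagen gels and been passaged. ScxCre acts in cells with a history of Scleraxis expression and from development on, so a cKO culture can hold cells in which no deletion took place.

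VEGFA, VEGFB and placental growth factor bind VEGFR1, VEGFA also binds VEGFR2, the main signalling receptor for blood vessel growth, and VEGFC and VEGFD act on VEGFR3 of lymphatic vessels, in the mouse VEGFC also on VEGFR2. Angiopoietin 1 activates the receptor TIE2 (Tek), angiopoietin 2 mostly opposes it, and ANGPTL4 is a secreted inhibitor of lipoprotein lipase that is not a ligand of TIE2. Vegfa and Angptl4 are textbook targets of hypoxia inducible factors (HIFs), Angptl4 is also a target of PPAR receptors, and tendon is a tissue with few vessels.

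Library totals ran from 6857558 counts in the first cKO library in 1% O2 to 51806453, and the second smallest held 26967440. Levels are given as CPM, the count scaled to library size, and a count of 3, taken as the floor, was worth 0.427 CPM in the shallowest library and at most 0.108 CPM in the others. Hif1a transcripts were not lower in cKO TFs: its log2 fold change against Ctrl was 0.11 (SE 0.14) in 20% O2 and 0.08 (SE 0.14) in 1% O2, with edgeR adjusted p = 0.693 and 0.778, although a gene-wide count need not show the loss of a floxed exon. Reads of the Cre transgene were counted in 5 of 6 cKO libraries, at 1 to 5 counts, and in no other library. Summed tendon fibroblast markers (Scx, Tnmd, Mkx, Col1a1, Col1a2, Thbs4, Fmod and Dcn) stood at 5211 to 14423 CPM. Of 8 endothelial markers, Emcn, Cldn5, Erg and Sox17 never exceeded 3 counts, Pecam1 reached 9 and Cdh5 26, and the 8 summed to 1.40 to 4.95 CPM. A list of 6 leukocyte and macrophage markers summed to 19.3 to 38.3 CPM. In single libraries Ptprc reached 5 counts at most and Adgre1 6, whereas Cd68 reached 90, Csf1r 102, Cd14 580 and Lyz2 969. In such bulk samples, fewer cells of a type and less RNA per cell cannot be told apart.

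Promoter windows from RefSeq (build GRCm38.p6, 250 bases before to 50 after a start site) were found for 7 of the 10 genes, with 9 windows in all, and none for Angpt1, Angpt2 and Angptl4. The HIF core, searched as ACGTG or GCGTG on both strands, stood in 5 of the 9 windows, and in 43.8% of all 32851 windows. It was found in Vegfb, Pgf, Flt1 and Kdr, and in the inner of 2 Vegfa start sites. The upstream bases of Vegfa (outer start, chr17:46032378-46032627, minus strand) and of Kdr (chr5:75978459-75978705, minus strand) are printed as those of the member called between genotypes and of its main signalling receptor. On GRCm38 the Vegfa gene spans chr17:46016993-46032369 and Kdr spans chr5:75932827-75978458, both protein-coding. The sequences are given 5′ to 3′ with core matches in capitals, and they lie outside the annotated exons of their own gene.
Vegfa: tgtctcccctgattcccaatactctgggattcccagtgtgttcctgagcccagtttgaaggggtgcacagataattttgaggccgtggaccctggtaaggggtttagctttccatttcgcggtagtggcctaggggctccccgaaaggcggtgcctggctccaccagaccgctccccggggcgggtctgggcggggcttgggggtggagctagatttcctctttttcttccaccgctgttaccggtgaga
Kdr: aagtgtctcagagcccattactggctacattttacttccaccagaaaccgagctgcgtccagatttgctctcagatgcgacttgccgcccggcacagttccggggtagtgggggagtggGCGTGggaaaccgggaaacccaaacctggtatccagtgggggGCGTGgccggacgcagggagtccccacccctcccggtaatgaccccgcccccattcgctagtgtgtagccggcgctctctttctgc
The outer Vegfa window held no match, and Kdr held 2, at 131 and 89 bases before the start. Around the inner Vegfa start, at base 46025163, the first match read gccctggagtGCGTGcccacgtcag and was closely followed by a second, on the opposite strand. A match is a string of letters and not a binding site, and the sequences were not used in any comparison.

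Vegfd, not Vegfa, was the most abundant VEGF-family ligand transcript per kb of transcript in all 18 libraries. On this per-length scale (CPM per kb of the longest transcript), Vegfd made up 53.0% to 71.7% of the 5 ligands in single libraries. Its mean share was 61.3% ± 6.31 (SD, n = 3) in Ctrl TFs in 20% O2 and 65.5% ± 3.29 in cKO TFs in 1% O2. Vegfa had the second highest mean share, with 25.7% ± 5.44 in Ctrl TFs in 20% O2 and 17.1% ± 4.29 in cKO TFs in 20% O2, and was exceeded by Vegfb in 1 library, the second of cKO TFs in 20% O2. Vegfd exceeded Vegfa per kb by 1.75-fold in the library where they were closest and by 5.45-fold where they were farthest apart. Vegfb held 9.28% ± 1.69 of the ligand pool in Ctrl TFs in 20% O2 against 16.6% ± 1.57 in cKO TFs in 20% O2, Vegfc held means of 2.48% to 5.48%, and Pgf held means of 0.293% to 1.01%. The shares are a description and were not tested.

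**Figure D1:**
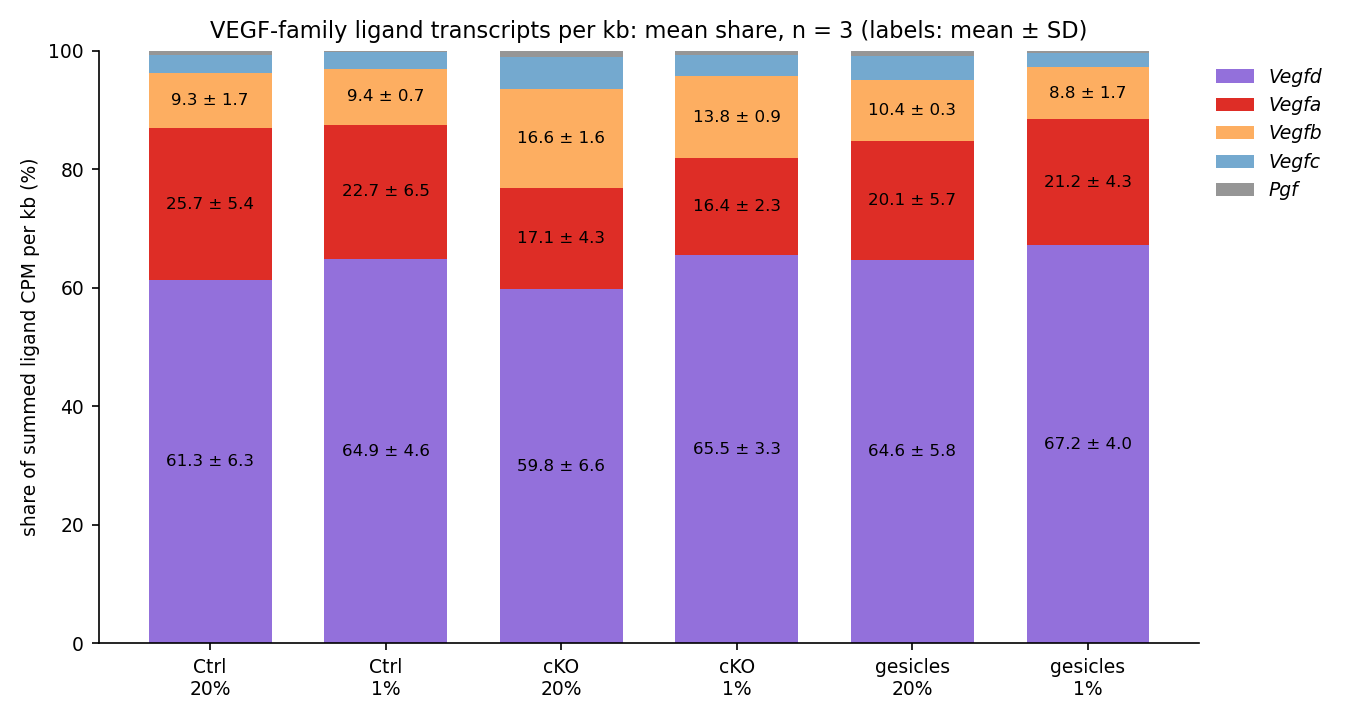
Stacked bars give the mean share (%, n = 3 libraries per group) of each VEGF-family ligand in their summed CPM per kb of longest transcript, by genotype, O2 level and gesicle treatment, with mean ± SD printed for Vegfd, Vegfa and Vegfb. Vegfd fills the largest segment in every group, and the Vegfa segment is narrowest in cKO TFs.

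The angiopoietins and receptors were further apart. Angpt1 averaged 12.3 CPM per kb over all 18 libraries, below Vegfb at 16.5, whereas Angpt2 averaged 0.310. The receptors were near the limit of detection, Flt1 at 0.0982 CPM per kb and Kdr at 0.0270. Flt1 was counted in every library, at 5 to 46 reads, and Kdr exceeded 3 reads in 5 libraries only, all of them Ctrl TFs with or without gesicles in 20% O2. Kdr thus passed the filter through those groups alone, so its differences from other groups are described by reads and read from no test.

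**Figure D2:**
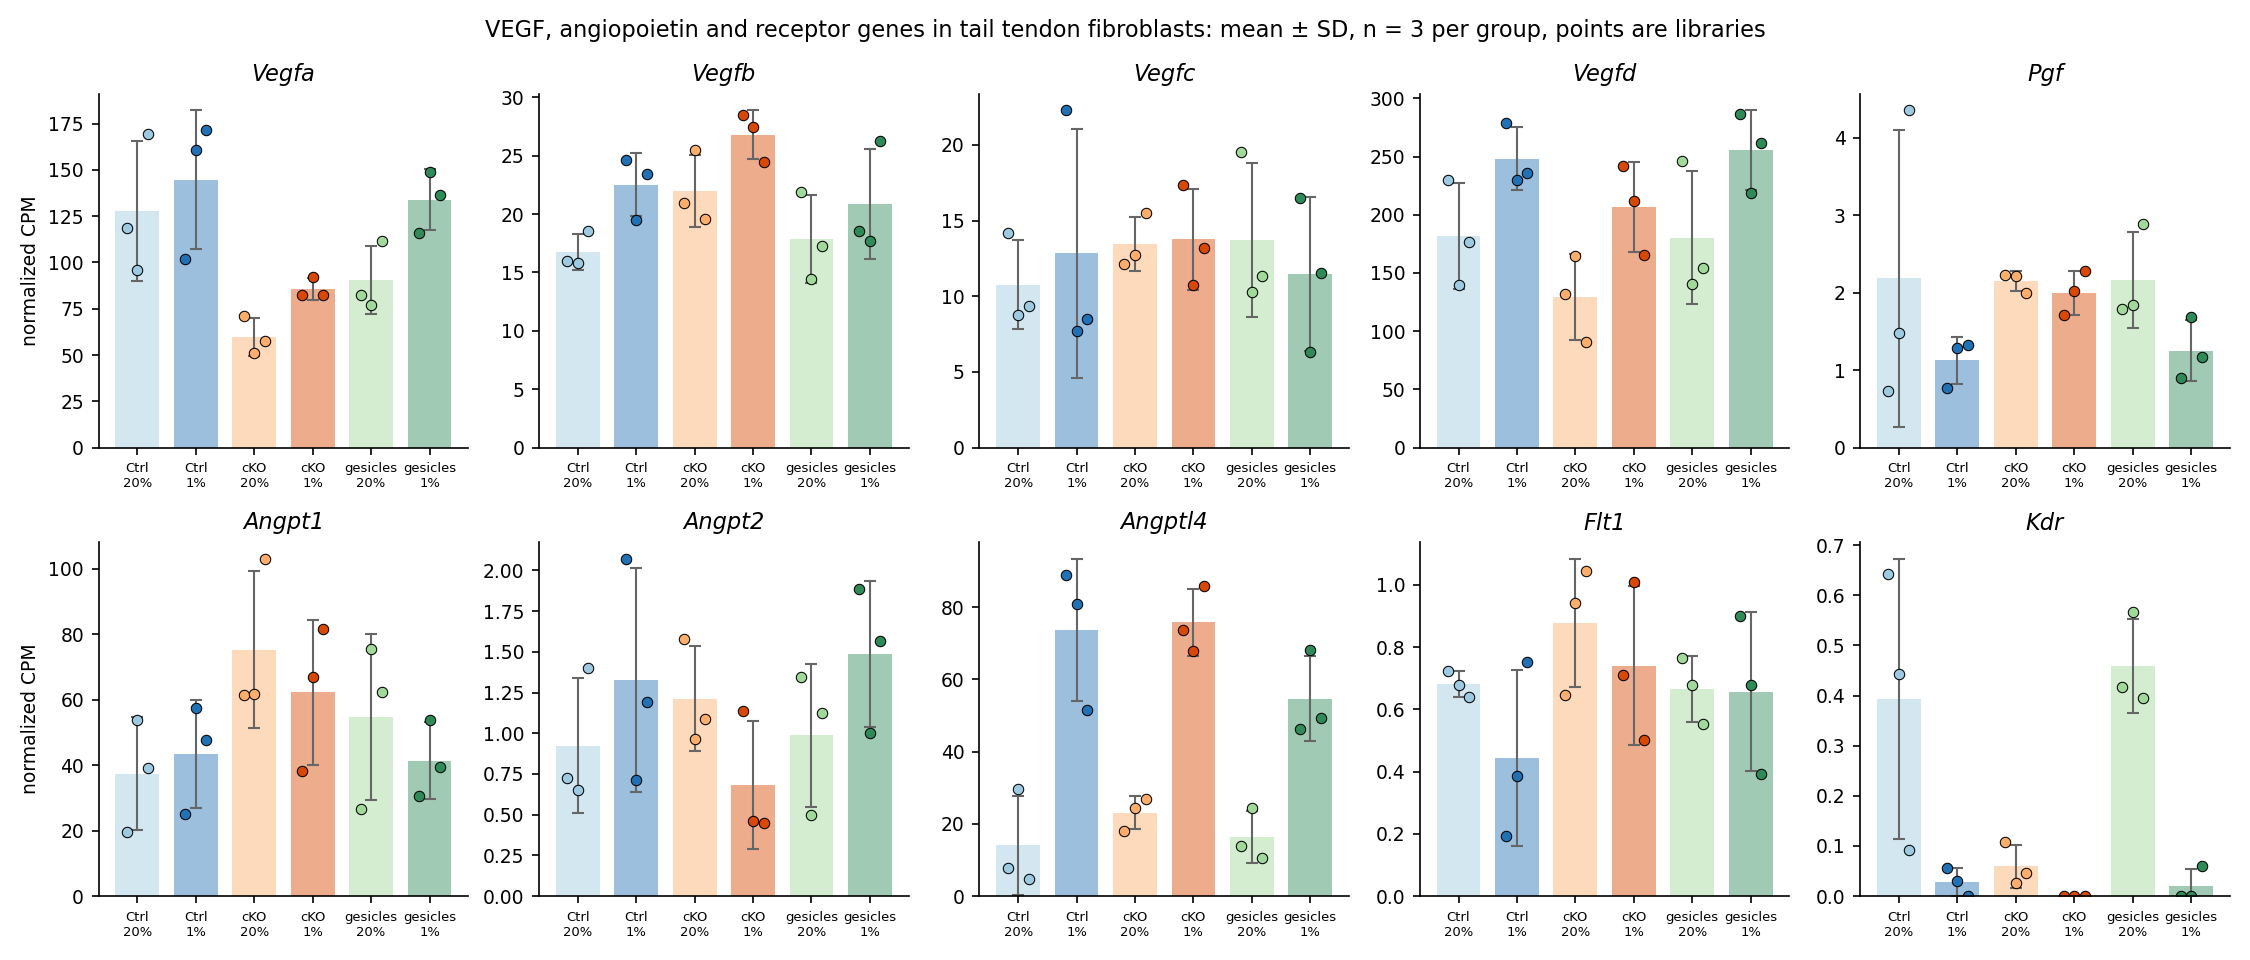
Each panel plots 1 gene, with normalized CPM on a linear axis from 0, bars for the mean, error bars for the SD (n = 3) and points for single libraries of the 6 groups. Angptl4 points in 1% O2 lie above all 20% O2 points, Kdr points leave the axis clearly only in Ctrl and gesicle-treated TFs in 20% O2, and Vegfa points of cKO TFs lie below those of Ctrl TFs at the same O2 level.

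The first question was how the genes answered to 1% O2. In Ctrl TFs 434 of 16174 genes were called differentially expressed (adjusted p under 0.05 and at least 1.5-fold by edgeR's quasi-likelihood test), which is 2.68% of those tested, 2.01% being higher and 0.674% lower in 1% O2. Among the 9 members other than Kdr, 1 was called: Angptl4 rose. With the library number as a block within genotype, 753 genes were called in Ctrl TFs, and Angptl4 was again the 1 member. In cKO TFs edgeR called 0 of the 9, against 3.01% of all genes (1.94% higher and 1.07% lower). At an unadjusted p under 0.05 and the same fold, Angptl4 and Vegfd passed there, as did 11.6% of all genes. DESeq2 called 1, Angptl4, among 897 of 14877 genes. In gesicle-treated TFs edgeR also called 0 of the 9, against 2.41% of all genes (1.64% higher and 0.767% lower). Angptl4 alone of the 9 passed there at an unadjusted p under 0.05 and the same fold, as did 9.41% of all genes. DESeq2 called Angptl4 there among 731 of 14327 genes.

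Angptl4 was the member that rose in Ctrl TFs in 1% O2. The 3 Ctrl libraries in 20% O2 stood at 7.70, 29.7 and 4.69 CPM, and those in 1% O2 at 88.8, 80.8 and 51.4 CPM. Every library in 1% O2 exceeded every library in 20% O2, as did 16.4% of all genes in that direction. This was a log2 fold change of 2.39 (edgeR adjusted p = 0.0150, SE 0.51, n = 3 per group). With the library number as a block within genotype it was 2.71 (SE 0.37, edgeR adjusted p = 0.00139). In fits with no block, the call was lost without the first Ctrl library in 20% O2 (log2 fold change 2.07, edgeR adjusted p = 0.10), without the third (1.94, adjusted p = 0.0539) and without the first Ctrl library in 1% O2 (2.19, adjusted p = 0.0672).

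The other arms had the same order of libraries. In cKO TFs Angptl4 stood at 18, 24.5 and 26.9 CPM in 20% O2 and at 73.6, 67.8 and 85.9 CPM in 1% O2. Again no library overlapped, against 10.3% of all genes in that direction, and the fold change was 1.71 on the log2 scale (edgeR adjusted p = 0.0629, SE 0.49, not called). DESeq2 called it (adjusted p = 0.00654). In gesicle-treated TFs the libraries stood at 13.8, 24.3 and 10.6 CPM in 20% O2 and at 46.3, 68.2 and 49.4 CPM in 1% O2, a log2 fold change of 1.75 (edgeR adjusted p = 0.0677, SE 0.49, not called), and DESeq2 called it (adjusted p = 0.00664). These groups did not overlap either, as in 13% of all genes. Both differences were also called in edgeR without the second Ctrl library in 20% O2 (adjusted p = 0.00687 in cKO and 0.00744 in gesicle-treated TFs) or the third (0.0300 and 0.0339), in a fit where all groups share 1 estimate of the spread.

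Whether the oxygen response of Angptl4 differed between arms was tested directly. It was smaller by 0.68 log2 units in cKO than in Ctrl TFs (SE 0.68, unadjusted p = 0.332 and adjusted p = 1.00 by edgeR) and smaller by 0.64 in gesicle-treated than in untreated Ctrl TFs (SE 0.68, unadjusted p = 0.359 and adjusted p = 1.00 by edgeR). In these fits without a block, both differences were of the size of their own error. Without the second Ctrl library in 20% O2, whose 29.7 CPM was the highest of its group, the difference from Ctrl TFs was -1.81 in cKO and -1.79 in gesicle-treated TFs. It was -0.20 in gesicle-treated TFs without the third Ctrl library in 20% O2. Over all fits that left out 1 library, the difference in cKO TFs ran from -1.81 to -0.22. With all libraries and the library number as a block within genotype, the difference was -0.99 in cKO TFs (SE 0.49). In gesicle-treated TFs it was then -0.86 (SE 0.49). Neither was called, and the number does not pair O2 levels within cKO or gesicle-treated TFs. The level of Angptl4 did not pass the test between genotypes in 20% O2 (log2 fold change 0.72, SE 0.49, edgeR adjusted p = 0.452) or in 1% O2 (0.04, SE 0.48, adjusted p = 0.971). Without that same second library the difference in 20% O2 was 1.87 and was called (edgeR adjusted p = 0.0310). Of 5 adipocyte markers, Adipoq, Cidec and Lep never exceeded 3 counts, and the list summed to 1.53 to 3.22 CPM in Ctrl TFs in 20% O2 and to 2.98 to 4.46 CPM in 1% O2, nearly all of it Fabp4. The part of these cells in the Angptl4 result was not tested.

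**Figure D3:**
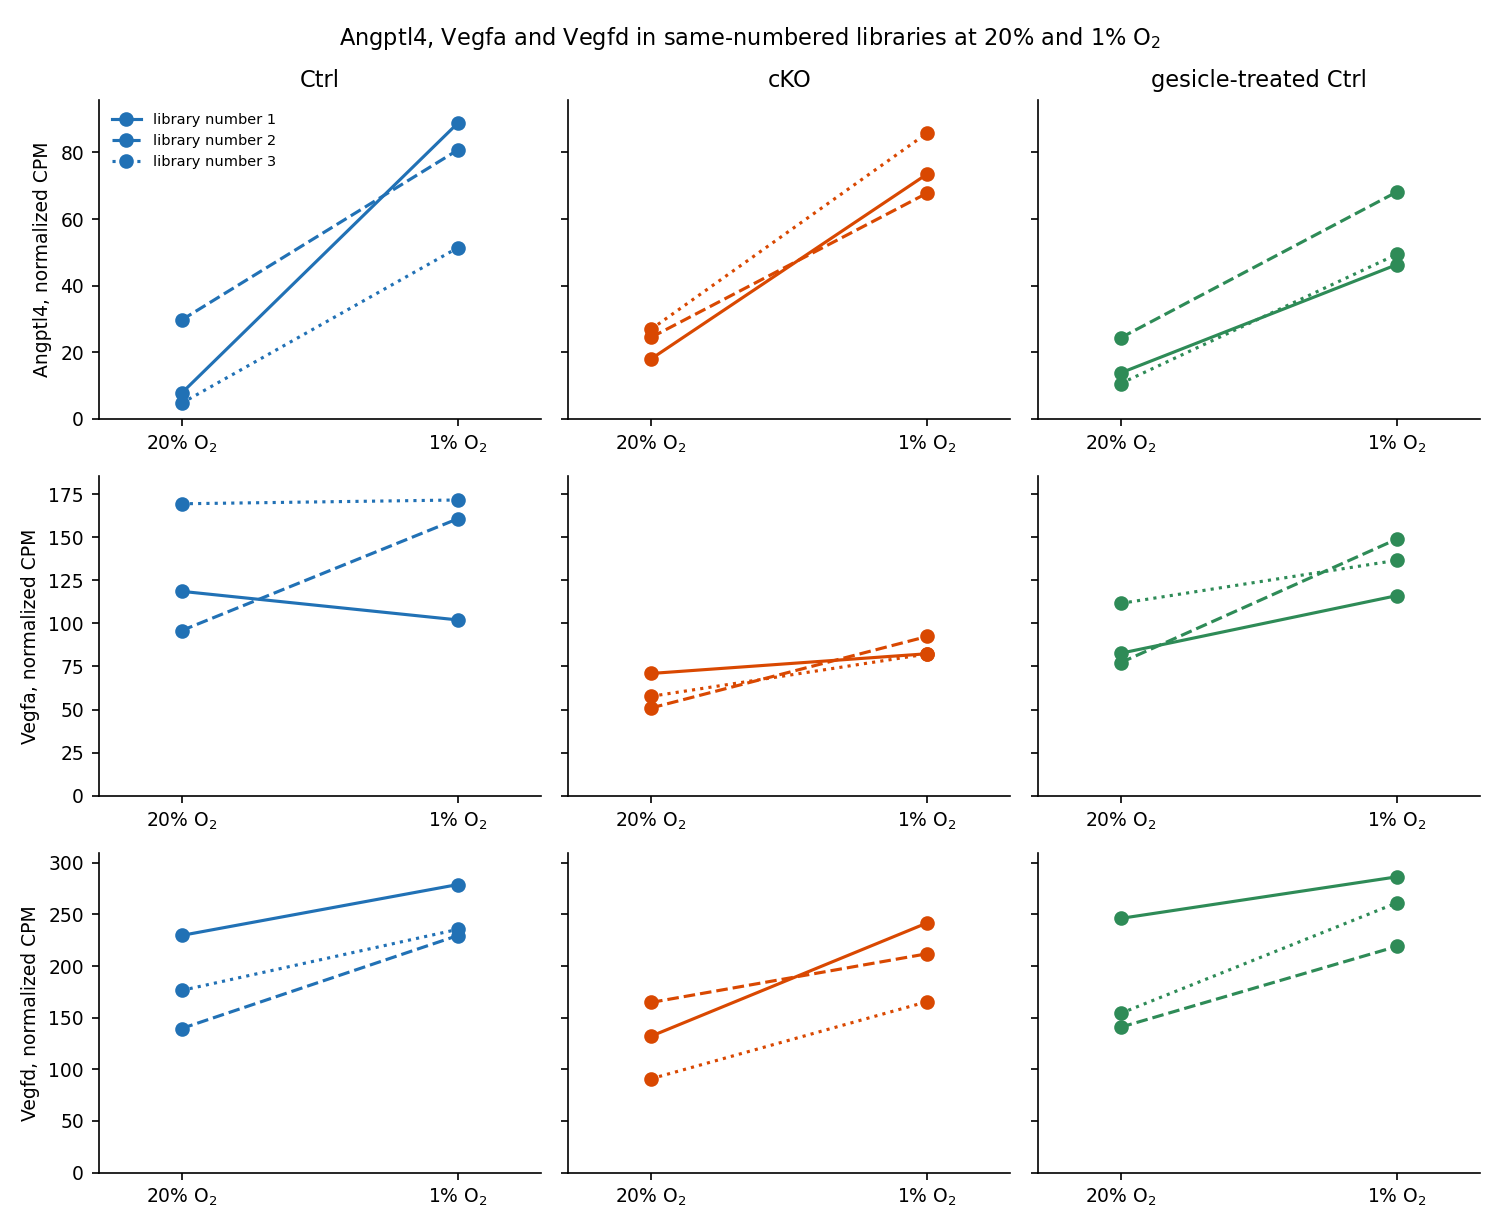
Lines join same-numbered libraries in 20% and 1% O2 (normalized CPM, linear axes from 0) for Angptl4, Vegfa and Vegfd in Ctrl, cKO and gesicle-treated Ctrl TFs. The number pairs libraries between O2 levels in Ctrl TFs only, where all 3 Angptl4 and all 3 Vegfd lines climb toward 1% O2 and of the Vegfa lines 1 descends and 1 is nearly level. In the other arms lines join libraries by number, and the check on pairing between O2 levels was not met there.

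Vegfa, the HIF target among the ligands, was not called in any oxygen comparison. In Ctrl TFs it stood at 119, 95.8 and 169 CPM in 20% O2 and at 102, 161 and 172 CPM in 1% O2. The groups overlapped, and the fold change was 0.18 on the log2 scale (edgeR adjusted p = 0.740, SE 0.22). Without the second Ctrl library in 20% O2 it was -0.03. In cKO TFs Vegfa stood at 70.9, 50.9 and 57.7 CPM in 20% O2 and at 82.4, 92.4 and 82.2 CPM in 1% O2, with a log2 fold change of 0.52 (edgeR adjusted p = 0.196, SE 0.22). In gesicle-treated TFs it stood at 82.6, 77.2 and 112 CPM and at 116, 149 and 137 CPM, for a log2 fold change of 0.56 (edgeR adjusted p = 0.189, SE 0.22). Libraries did not overlap in either of these arms, as in 10.3% and 13% of all genes in that direction, and neither difference passed the test. The response differed from that of Ctrl TFs by 0.34 log2 units in cKO (SE 0.31, unadjusted p = 0.291 by edgeR) and by 0.39 in gesicle-treated TFs (SE 0.31, unadjusted p = 0.232 by edgeR), with an adjusted p of 1.00 for both.

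The other ligands gave smaller or more scattered values. Vegfd libraries overlapped between O2 levels in Ctrl and gesicle-treated TFs and were higher in 1% O2 without overlap in cKO TFs, as were 10.3% of all genes, with log2 fold changes of 0.45 in Ctrl TFs (edgeR adjusted p = 0.374, SE 0.24), 0.67 in cKO TFs (SE 0.24, adjusted p = 0.134) and 0.50 in gesicle-treated TFs (SE 0.24, adjusted p = 0.303). None of these was called, although without the second cKO library in 20% O2 the value in cKO TFs was 0.89 and passed (edgeR adjusted p = 0.0475). In Ctrl TFs, where the number pairs libraries, Vegfd was higher in 1% O2 in 3 of 3 same-numbered pairs, as were Angptl4, Vegfb and Angpt1. With the library number as a block within genotype the value of Vegfd there was 0.47 (SE 0.13, edgeR adjusted p = 0.0539), not called. Vegfb, a ligand of VEGFR1, went from 16.0, 15.8 and 18.6 CPM to 24.6, 19.5 and 23.4 CPM in Ctrl TFs. Those libraries did not overlap, as in 16.4% of all genes in that direction, and the log2 fold change of 0.42 (SE 0.18) had an edgeR adjusted p of 0.230. In cKO and gesicle-treated TFs it was 0.28 and 0.22 (SE 0.18 for both, edgeR adjusted p = 0.377 and 0.561). Vegfc had log2 fold changes of 0.25, 0.02 and -0.26 in Ctrl, cKO and gesicle-treated TFs, with adjusted p of 0.790 or more.

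Pgf was sparse, at 12 to 146 counts per library. It stood at 0.724, 1.48 and 4.35 CPM in Ctrl TFs in 20% O2 and at 0.773, 1.28 and 1.32 CPM in 1% O2. A single library, the third in 20% O2, stood apart, and the log2 fold change of -0.95 (edgeR adjusted p = 0.322, SE 0.47) was -0.01 without it. In gesicle-treated TFs Pgf was lower in 1% O2 with no overlap between the groups, as in 11% of all genes, and the log2 fold change of -0.79 (SE 0.47) had an edgeR adjusted p of 0.409.

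Angpt1 and Angpt2 were not called in any arm. The log2 fold changes of Angpt1, the TIE2 agonist, in 1% against 20% O2 were 0.22, -0.27 and -0.41 in Ctrl, cKO and gesicle-treated TFs, with adjusted p of 0.673 or more. Angpt2 stood at 0.724, 0.650 and 1.40 CPM in Ctrl TFs in 20% O2 and at 2.07, 0.715 and 1.19 CPM in 1% O2. In cKO TFs it stood at 1.58, 0.968 and 1.09 CPM in 20% O2 and at 1.14, 0.461 and 0.450 CPM in 1% O2. The log2 fold changes were 0.52 (edgeR adjusted p = 0.632, SE 0.48) in Ctrl, -1.02 (SE 0.52, adjusted p = 0.279) in cKO and 0.59 (SE 0.47, adjusted p = 0.561) in gesicle-treated TFs. Without the first Ctrl library in 1% O2, at 2.07 CPM, the value in Ctrl TFs was 0.0099. In cKO TFs the O2 levels overlapped, and the highest value in 1% O2 came from the shallowest library, where it rested on 8 counts.

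Kdr, the receptor that carries most of the VEGFA signal in endothelium, had its reads almost all in Ctrl and gesicle-treated TFs in 20% O2. In Ctrl TFs its reads numbered 24, 15 and 3 in 20% O2 and 2, 1 and 0 in 1% O2. Pooled over libraries, 42 reads against 3 gave a depth-scaled level 14.6-fold higher in 20% O2, with an exact (Clopper-Pearson) 95% interval of 4.66 to 73.6 that covers counting error only. The fit gave an edgeR adjusted p of 0.0498, which supports nothing here, since the gene was tested only through the groups where it was high. That p was 0.0282 in DESeq2, 0.0586 in edgeR without the filter, 0.0595 with the library number as a block and 0.0571 with the block within genotype. It was above 0.05 in 15 of 18 fits that each left out 1 library.

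Gesicle-treated TFs had the same order of libraries. Their Kdr reads numbered 18, 25 and 20 in 20% O2 and 0, 0 and 2 in 1% O2, and the 63 reads against 2 gave a level 22.5-fold higher in 20% O2 (95% counting interval 5.98 to 190). The edgeR adjusted p of 0.0339 has the same limit, was above 0.05 in 9 of 18 fits without 1 library, and DESeq2 gave no adjusted p for Kdr there. In cKO TFs Kdr was at or under 3 reads in all 6 libraries, so no fold is given between O2 levels. Ctrl and gesicle-treated libraries in 1% O2 lay below those in 20% O2 without overlap, as in 13.3% and 11% of all genes. The 8 endothelial markers summed to 1.80 to 2.65 CPM in Ctrl TFs in 20% O2 and to 2.41 to 3.08 CPM in 1% O2, and to 1.74 to 2.65 and 2.50 to 2.69 CPM in gesicle-treated TFs. From 20% to 1% O2 the summed raw counts of Pecam1 went from 19 to 12 in Ctrl and from 20 to 14 in gesicle-treated TFs. Those of Cdh5 went from 9 to 13 and from 11 to 5, and those of Vwf from 5 to 5 and from 2 to 9. Those of Egfl7 went from 194 to 273 and from 283 to 223. Such sums are not scaled to depth. Gesicle-treated libraries held 44011967 to 51806453 counts in 20% O2 and 32146235 to 35280121 in 1% O2, so a lower sum there need not be a lower level. Summed mural cell markers (Rgs5, Cspg4, Pdgfrb, Mcam, Kcnj8, Abcc9, Notch3 and Myh11) stood at 382 to 517 CPM in Ctrl TFs in 20% O2 and at 298 to 349 CPM in 1% O2, and at 316 to 541 and 213 to 416 CPM in gesicle-treated TFs, where the O2 levels overlapped. Most of these counts were Pdgfrb. Summed Rgs5 counts went up, from 1193 to 1638 in Ctrl and from 1065 to 1640 in gesicle-treated TFs. Kcnj8 went from 74 to 25 and from 33 to 39, and the counts of the other mural markers went down in both. These sums are not scaled to depth either. The part of such cells in the Kdr result was not tested.

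Flt1, which can act as a decoy for VEGFA, stood at 0.724, 0.679 and 0.639 CPM in Ctrl TFs in 20% O2 and at 0.193, 0.387 and 0.752 CPM in 1% O2. These groups overlapped, and its log2 fold changes of -0.61, -0.25 and -0.02 in Ctrl, cKO and gesicle-treated TFs had edgeR adjusted p of 0.532 or more.

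**Figure D4:**
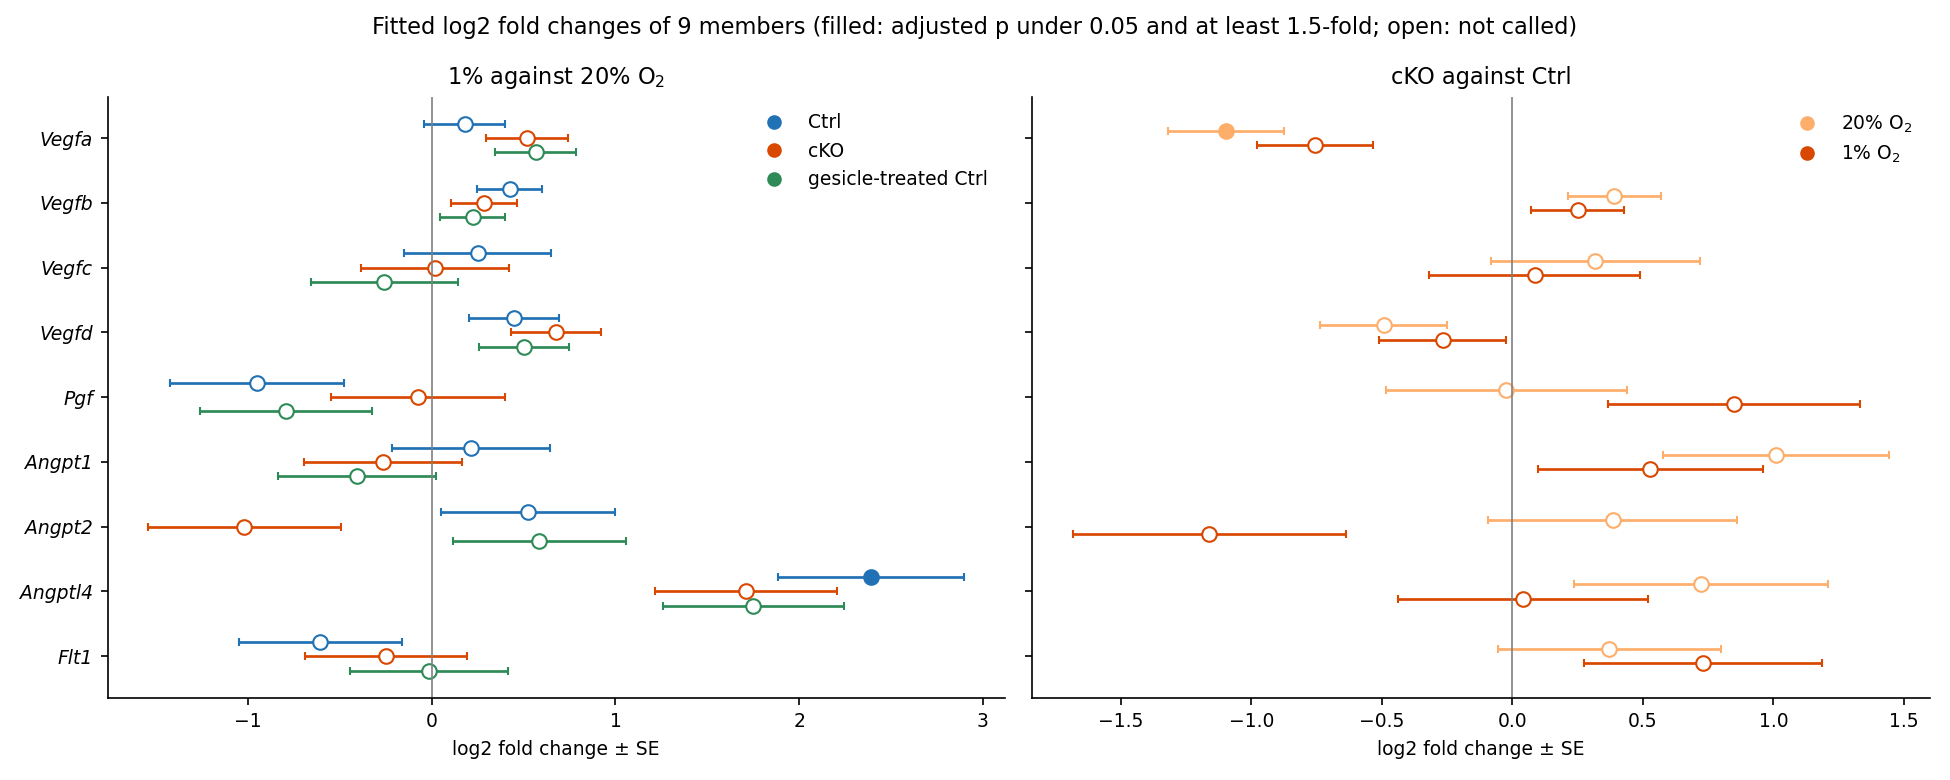
Points give the fitted log2 fold change and bars its SE for 9 members, without Kdr, in 1% against 20% O2 (left, by arm) and in cKO against Ctrl TFs (right, by O2 level), filled where called. Angptl4 in Ctrl TFs (2.39) and Vegfa in cKO TFs in 20% O2 (-1.10) are the filled points, and Angpt2 in cKO TFs lies on the other side of 0 from the other arms.

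The second question was what differed between cKO and Ctrl TFs. In 20% O2, 87 of 16174 genes were called (0.538%), 0.266% being higher and 0.272% lower in cKO TFs, and 1 of the 10 members was among them: Vegfa fell. Its 70.9, 50.9 and 57.7 CPM in cKO TFs (mean 59.8 ± 10.2, SD) lay below the 119, 95.8 and 169 CPM in Ctrl TFs (128 ± 37.7), with no overlap, as in 10.3% of all genes. This was a log2 fold change of -1.10 (edgeR adjusted p = 0.0372, SE 0.22, n = 3 per group). In 1% O2 the 82.4, 92.4 and 82.2 CPM in cKO TFs also lay below the 102, 161 and 172 CPM in Ctrl TFs, with no overlap, as in 15% of all genes. That log2 fold change of -0.76 (SE 0.22) did not pass (edgeR adjusted p = 0.178). In 1% O2 edgeR and DESeq2 each called 0 of the 10 members. There DESeq2 called 235 of 14327 genes, and edgeR called 0.0866% of all genes (0.0556% higher and 0.0309% lower). At an unadjusted p under 0.05 and the same fold, Vegfa and Angpt2 passed there, as did 9.6% of all genes.

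The Vegfa call in 20% O2 was kept by DESeq2 (adjusted p = 4.99e-04) and lost when only the 12 Ctrl and cKO libraries were fitted (log2 fold change -1.10, edgeR adjusted p = 0.0689). It was also lost without the first or the third Ctrl library in 20% O2 (edgeR adjusted p = 0.141 and 0.159) or the second or the third cKO library in 20% O2 (0.147 and 0.119). Over all 6 groups the mean Vegfa level ran from 59.8 CPM in cKO TFs in 20% O2 through 85.7 in cKO TFs in 1% O2, 90.5 in gesicle-treated TFs in 20% O2, 128 in Ctrl TFs in 20% O2 and 134 in gesicle-treated TFs in 1% O2 to 145 in Ctrl TFs in 1% O2. Libraries of neighbours in that order overlapped, except those of cKO TFs in 20% and 1% O2. Summed mural cell markers stood at 157 to 415 CPM in cKO TFs in 20% O2 and at 168 to 238 CPM in cKO TFs in 1% O2, against 382 to 517 and 298 to 349 CPM in Ctrl TFs. Most of these counts were Pdgfrb, and the part of mural cells in the Vegfa result was not tested.

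Among the remaining members, Angpt1 and Vegfb were higher in every cKO than in every Ctrl library in 20% O2, as were 10.7% of all genes. Angpt1 stood at 61.4, 61.6 and 103 CPM in cKO TFs and at 19.4, 53.7 and 39.1 CPM in Ctrl TFs, a log2 fold change of 1.01 (edgeR adjusted p = 0.300, SE 0.43). In 1% O2 it was 0.53 (SE 0.43, adjusted p = 0.498). Vegfb had log2 fold changes of 0.39 (edgeR adjusted p = 0.319, SE 0.18) in 20% O2 and 0.25 (SE 0.18, adjusted p = 0.441) in 1% O2. Pgf was higher in every cKO library in 1% O2, at 1.71 to 2.28 CPM against 0.773 to 1.32 CPM, as were 12% of all genes, with a log2 fold change of 0.85 (edgeR adjusted p = 0.346, SE 0.48). None of these differences was called.

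Vegfd leaned the other way, with log2 fold changes of -0.49 (edgeR adjusted p = 0.343, SE 0.24) in 20% O2 and -0.27 (SE 0.24, adjusted p = 0.548) in 1% O2. Angpt2 had log2 fold changes of 0.38 (edgeR adjusted p = 0.693, SE 0.48) in 20% O2 and -1.16 (SE 0.52, adjusted p = 0.267) in 1% O2. Kdr gave 3, 1 and 2 reads in cKO TFs in 20% O2 against 24, 15 and 3 in Ctrl TFs. The 42 reads against 6 made a level 7.49-fold higher in Ctrl TFs (95% counting interval 3.17 to 21.6), and the groups overlapped. Comparisons of cKO with Ctrl TFs and of 1% with 20% O2 share the same libraries, so their values for a gene are not independent of each other.

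The last comparison was between Ctrl TFs with and without Cre gesicles, and no member was called in it. In 20% O2, 4 of 16174 genes were called (0.0247%; 3 with the library number as a block and 2 within genotype), in 1% O2 0 were called by edgeR and 0 by DESeq2 (235 and 284 at an unadjusted p under 0.05 and the same fold), and 0 of the 10 members passed in either by either tool, also at an unadjusted p under 0.05 and the same fold in edgeR, which 2.41% and 1.45% of all genes passed. Vegfa was lower with gesicles in 20% O2 in 3 of 3 same-numbered pairs, with a log2 fold change of -0.50 (SE 0.22, unadjusted p = 0.0378 and adjusted p = 1.00 by edgeR), and at -0.11 (SE 0.22) in 1% O2. With the library number as a block within genotype, Vegfa was at -0.49 in 20% O2 (SE 0.18, edgeR adjusted p = 0.701). Vegfc and Angpt1 were higher with gesicles in 3 of 3 pairs in 20% O2, and Angptl4 was lower in 3 of 3 in 1% O2. The libraries of the treated and untreated groups overlapped for all 10 members at both O2 levels, while 6.88% of all genes were higher and 5.63% lower without overlap in 20% O2, and 2.97% and 3.35% in 1% O2. Neither test of a differing oxygen response called any gene: 0 between cKO and Ctrl TFs and 0 between gesicle-treated and untreated TFs in edgeR and in DESeq2, with 324 and 200 genes in edgeR and 459 and 300 in DESeq2 at an unadjusted p under 0.05 and the same fold.

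Genes around the pathway were counted in the same fits. Of 10 oxygen-regulated reference genes (Slc2a1, Pdk1, Bnip3, Ndrg1, Ankrd37, Egln3, Car9, Pfkfb3, Ldha and Pgk1), 9 rose in 1% O2 in Ctrl TFs, 8 in cKO TFs and 8 in gesicle-treated TFs, with median log2 fold changes of 2.07, 1.55 and 1.58, beside a median of all genes between -0.04 and -0.01. Pdk1, whose product inhibits pyruvate dehydrogenase, had log2 fold changes of 2.63, 1.99 and 2.13, and Ankrd37 had 2.84, 3.16 and 3.19. The median of the 9 members other than Kdr in the same arms was 0.25, 0.02 and 0.22.

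Of 13 other secreted angiogenic factors, 1 rose in each arm, and it was Adm (adrenomedullin, a vasodilator peptide) each time. Its log2 fold changes were 1.24 (edgeR adjusted p = 0.00452, SE 0.22) in Ctrl, 1.25 (SE 0.22, adjusted p = 0.00494) in cKO and 0.95 (SE 0.22, adjusted p = 0.0270) in gesicle-treated TFs, and its means in 1% O2 were 634 ± 98.4, 1051 ± 108 and 702 ± 173 CPM (SD, n = 3). The call in gesicle-treated TFs was lost in 3 of 18 fits without 1 library (the first or the second gesicle-treated library in 20% O2, or the third in 1% O2), with an adjusted p of up to 0.146. The medians of the 13 were 0.13, 0.30 and 0.34.

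Of 5 tested angiopoietin-like and angiopoietin genes outside the members, 1 rose in Ctrl TFs, Angptl2, from 597 ± 86.9 to 1071 ± 220 CPM (log2 fold change 0.84, SE 0.20, edgeR adjusted p = 0.0321), and none was called in the other arms. The list's medians were 0.05, 0.19 and -0.03, and the Angptl2 call was lost in 7 of 18 fits without 1 library (adjusted p up to 0.203, without the first Ctrl library in 1% O2). Of 13 tested genes of VEGF processing and binding, 1 fell in Ctrl TFs, Ccn2 (a matricellular protein that binds VEGFA), from 2337 ± 486 to 1062 ± 508 CPM (log2 fold change -1.14, SE 0.28, edgeR adjusted p = 0.0377), and none was called in the others. Its medians were -0.20, -0.57 and -0.27, and the Ccn2 call was lost in 5 of 18 such fits (adjusted p up to 0.127, without the third Ctrl library in 20% O2).

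No gene was called among the 5 tested receptors and co-receptors outside the members (Flt4, Nrp1, Nrp2, Tek and Ptprb) in any comparison by edgeR, and their medians in 1% against 20% O2 were -0.47, -0.50 and -0.66. Tek, the TIE2 receptor, was chosen for its values to be named: it averaged 36.8 ± 9.08 CPM in Ctrl TFs in 20% O2 and 19.1 ± 7.98 CPM in 1% O2. Its log2 fold changes of -0.94, -0.90 and -0.99 in Ctrl, cKO and gesicle-treated TFs had edgeR adjusted p of 0.220, 0.201 and 0.197, each with an unadjusted p under 0.05. At that unadjusted p and at least 1.5-fold, 1536, 1870 and 1522 of 16174 genes passed in these arms. The p of a gene chosen for its values supports nothing. Tie1, the partner of TIE2 in endothelium, gave 1 count in 18 libraries and was not tested. Of 8 tested PPAR target genes, 1 rose in cKO TFs, Ehhadh, a peroxisomal enzyme of fatty acid oxidation (log2 fold change 0.82, SE 0.21, edgeR adjusted p = 0.0447), and 0 were called in the other arms. The medians were 0.37, 0.37 and 0.29, and the Ehhadh call was lost in 11 of 18 fits without 1 library (adjusted p up to 0.164). Across all 6 lists, no gene was called between genotypes at either O2 level or between gesicle-treated and untreated TFs.

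**Figure D5:**
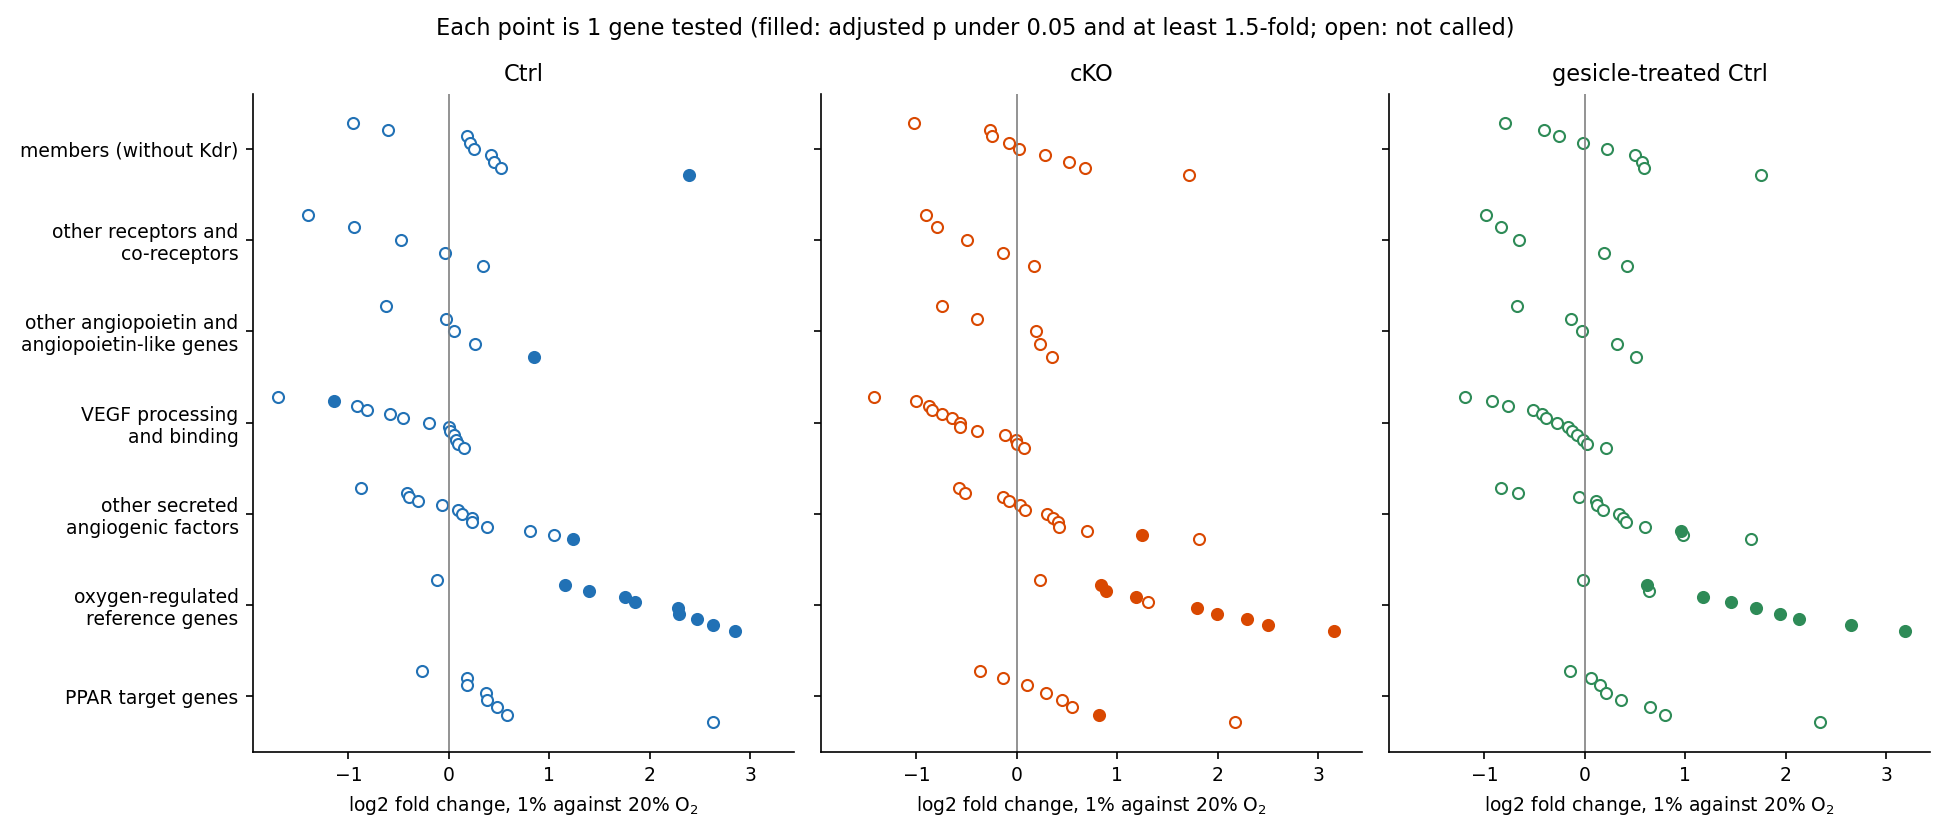
Each point is the log2 fold change (1% against 20% O2) of 1 tested gene, Kdr left out, in rows by list and in 1 panel per arm, filled where called. The oxygen-regulated reference genes lie to the right in all 3 panels (medians 2.07, 1.55 and 1.58), whereas the members other than Angptl4 lie on both sides of 0.

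Levels of single genes across the 18 libraries were compared with those of the members as a description, since groups, culture and depth are shared. Angptl4 was most like Olfml3 (Pearson r = 0.96 of log2 CPM over 18 libraries, of 16164 genes compared), Sparcl1 (0.95) and Nsg1 (0.94). Vegfd was most like Gsta4 (0.95), Gm3776 (0.94) and Gsta1 (0.91), glutathione S-transferase loci whose similar copies can share reads. Vegfa was most like Lmod1 (0.92), a smooth muscle leiomodin, Ezh1 (0.91) and Peli2 (0.91), and Angpt1 was most like Mest (0.89). For Angpt2 the best value was 0.80, with Sh3bp1.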

How the data were processed

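Tail TFs were profiled by poly-A RNA-seq with paired 151-base reads. Per the labels and methods, the authors used cutadapt for trimming, STAR for mapping (GRCm38) and RSEM 1.3.3 for quantification. The estimated counts (RSEM's expected counts) were deposited by the authors as whole numbers, not normalized, and 4 of the 55491 rows are transgenes. A read shared by similar genes is split by RSEM, so counts of near-identical copies are uncertain. Members and lists were chosen with earlier results of these data known.

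Counts of all 18 libraries entered 1 fit in edgeR 4.0.16 (R 4.3.3): filterByExpr by group, TMM scaling, 1 coefficient per group and quasi-likelihood F tests of 9 comparisons, with Benjamini-Hochberg adjustment over all 16174 genes and a call at adjusted p under 0.05 and at least 1.5-fold. SEs are the log2 fold change over the square root of F. The exact intervals for Kdr were Clopper-Pearson at 95%, and ratios of same-numbered libraries used a pseudocount of 0.1 CPM. Gene lengths came from GENCODE M21 and promoters from RefSeq. All members are named, and in each list at most the 4 called genes with the largest change, besides those said to be chosen for their values.

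Groups came from the labels, and no columns were left over. No 2 libraries were copies (smallest chi-square per degree of freedom 12.9). p-values measure the spread of 3 cultures per group. The library number pairs samples only where all 3 same-number correlations of deviations from the group mean exceeded 0.1, a check on the data since no label names the pairing: 0.28, 0.31 and 0.48 between Ctrl TFs in 20% and 1% O2, 0.36 to 0.49 and 0.21 to 0.30 between untreated and gesicle-treated TFs in 20% and 1% O2. It was not met within cKO (0.085 to 0.40) or gesicle-treated TFs (-0.026 to 0.23). Scripts were tested on simulated data. Alternatives were DESeq2 1.42.0, its size factors in edgeR, no count filter, the library number as a block, the 12 Ctrl and cKO libraries alone, and leaving out each library.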

Additional observations from a re-analysis of the deposited data

Results flagged for a closer look

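Angpt2 was the only member whose oxygen response differed between arms at an unadjusted p under 0.05. The response was 1.54 log2 units lower in cKO than in Ctrl TFs (difference of log2 fold changes -1.54, SE 0.71, unadjusted p = 0.0445 by edgeR's test of the difference itself), and with adjustment over all genes p was 1.00. Levels overlapped between O2 levels in both arms, at 0.968 to 1.58 CPM in 20% O2 against 0.450 to 1.14 CPM in 1% O2 in cKO TFs and at 0.650 to 1.40 against 0.715 to 2.07 CPM in Ctrl TFs. The difference ranged from -1.92 to -1.02 when 1 library was left out, and -1.02 was the value without the first Ctrl library in 1% O2. The response of gesicle-treated TFs differed from that of Ctrl TFs by 0.06 (SE 0.67, unadjusted p = 0.927 by edgeR).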

How the results depend on the processing

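Counts of called genes moved with the tool. DESeq2 called 756 genes in 1% against 20% O2 in Ctrl, 897 in cKO and 731 in gesicle-treated TFs, 407 between genotypes in 20% O2, 235 in 1% O2, and 46 between gesicle-treated and untreated TFs in 20% O2. Without the filter on low counts, 423, 470 and 396 of 29738 genes were called between O2 levels in Ctrl, cKO and gesicle-treated TFs. In those fits 167 and 52 genes were called between genotypes in 20% and 1% O2 and 23 with gesicles in 20% O2. With the 12 Ctrl and cKO libraries alone, 298 of 15850 genes were called between O2 levels in Ctrl TFs, and the counts between genotypes were 55 and 6. Counts of members called below include Kdr. Of the 10 members, 1 was called in Ctrl TFs between O2 levels without the filter and with 12 libraries, 1 in cKO TFs by DESeq2 and without the filter, 2 in gesicle-treated TFs without the filter, and 0 between genotypes in 20% O2 with 12 libraries. The cause of these moves was not tested.

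With the library number as a block, edgeR called 501, 510 and 449 of 16174 genes between O2 levels in Ctrl, cKO and gesicle-treated TFs. Between genotypes, where the numbers do not pair the libraries, it called 140 genes in 20% O2 and 33 in 1% O2. Within genotype the block gave 753, 841 and 774 genes between O2 levels in Ctrl, cKO and gesicle-treated TFs, and 2 with gesicles in 20% O2. Members called under the blocks were 1 in Ctrl TFs, 1 (2 within genotype, Angptl4 and Vegfd) in cKO TFs, 2 in gesicle-treated TFs and 2 between genotypes in 20% O2. Angptl4 was called in cKO TFs (log2 fold change 1.74, adjusted p = 0.0386, and 1.72, adjusted p = 0.0135, within genotype) and in gesicle-treated TFs (1.81, adjusted p = 0.0364, and 1.85, adjusted p = 0.00999), as were Vegfd in cKO TFs within genotype (0.70, adjusted p = 0.00890) and Angpt1 between genotypes in 20% O2 (1.13, adjusted p = 0.0446). Besides the Kdr call in Ctrl TFs, no call on a member was lost under a block.

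When each library was left out in turn, genes called between O2 levels ranged from 204 to 549 in Ctrl, 253 to 1117 in cKO and 148 to 504 in gesicle-treated TFs. Between genotypes they ranged from 1 to 113 in 20% O2 and from 0 to 69 in 1% O2, with gesicles from 0 to 22 in 20% O2 and at 0 in 1% O2, and for both tests of a differing response from 0 to 1. Members called ranged from 0 to 2 in Ctrl, 0 to 1 in cKO, 0 to 2 in gesicle-treated TFs and 0 to 2 between genotypes in 20% O2, and were 0 in each other comparison. The lowest count between O2 levels in Ctrl TFs and between genotypes in 20% O2 came without the first Ctrl library in 20% O2, and the highest in cKO TFs without the second cKO library in 20% O2. Log2 fold changes that turned direction in 1 or more of these fits were Vegfa in 1% O2 in Ctrl TFs (-0.031 to 0.39) and with gesicles in 1% O2 (-0.29 to 0.042), Angptl4 between genotypes in 1% O2 (-0.15 to 0.22) and with gesicles in 20% O2 (-0.21 to 1.38), Vegfb in 1% O2 in gesicle-treated TFs (-0.00044 to 0.39), the gesicle difference in Angpt2 response (-0.33 to 0.57), and Hif1a between genotypes (-0.020 to 0.26 and -0.0038 to 0.23). None of them was called in the fit of all libraries. DESeq2's size factors changed no call on a member.

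With exon-union lengths in place of the longest transcript, 4 mean ligand shares moved by more than 1 SD, to 9.86% for Vegfb and 4.85% for Vegfc in gesicle-treated TFs in 20% O2, 3.64% for Vegfc in Ctrl TFs in 20% O2 and 0.858% for Pgf in cKO TFs in 20% O2. Depth limits Kdr, Flt1, Angpt2 and Pgf most, and the first cKO library in 1% O2 most of all.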

Other observations

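Transcripts of tdTomato were counted in 5 of 6 gesicle-treated libraries, at 1 to 3 counts, and in none of the others. Counts of eGFP summed to 8 in cKO TFs in 20% O2 and to 6 in cKO TFs in 1% O2, and to 0 in each other group.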
